A study of Mus musculus with 8 samples.

Results

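The Myc and ribosome biogenesis genes are 39 mouse genes taken by gene symbol: 3 genes of the Myc network, 33 genes of the nucleolus and ribosomal RNA (rRNA) processing, and 3 genes of polyamine and nucleotide synthesis. All 39 were found among the 24394 symbols shared by the 8 deposited tables. RNA came from endothelial cells of mouse brain, sorted by flow cytometry at postnatal day 8. WT 1 to 4 are libraries labelled wild type, and YT-ECKO 1 to 4 are labelled VE-cadherin-CreERT2 Yapf/f Tazf/f, that is, floxed alleles of Yap and Taz with a tamoxifen-inducible Cre under the endothelial VE-cadherin promoter. Both groups are labelled strain C57BL/6J. The labels name neither Cre nor floxed alleles in the WT mice and give no tamoxifen schedule, so these differences cannot be told apart from the deletion. Whether mice were pooled or sampled singly is not in the labels either, so every p-value measures the spread between these libraries.

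Myc and N-Myc are transcription factors that pair with Max and bind the E-box, the DNA sequence CACGTG. Their best known target genes build ribosomes: RNA polymerase I transcribes the rRNA precursor in the nucleolus, small nucleolar ribonucleoproteins (snoRNPs) modify it, and processing factors cut it and assemble the small and large subunits. Yap and Taz are co-activators of the Hippo pathway, and Myc has been described as one of the genes they act on. The comparison of these genes between YT-ECKO and WT asks whether this growth programme differs in postnatal brain endothelium where Yap and Taz were targeted. Transcripts of both targeted genes remained in the YT-ECKO libraries, at uneven levels given below.

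The E-box was searched in the promoter windows of RefSeq (GRCm38.p6), each from 250 bases before a start site to 50 bases after it. CACGTG reads the same on both strands, so 1 search covers both. Of the 39 genes, 31 had a window, with 38 windows in all. The motif was in 6 windows (15.8%), each of a different gene, against 7.2% of all 32851 windows and 10.3% of the 8620 windows of genes tested here. In Nop2 it began 60 bases before the start site and in Max 3 bases before it. In Pes1, Wdr43, Utp20 and Mybbp1a it began at base 3, 18, 38 and 41 of the transcript. The matches are shown with up to 12 bases on each side because they hold the sequence that Myc and Max are known to bind. They are 5′ to 3′ on the gene's strand, with the E-box in capitals.
Nop2 (chr6:125131811-125131840, plus strand): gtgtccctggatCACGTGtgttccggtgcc
Max (chr12:76962234-76962263, minus strand): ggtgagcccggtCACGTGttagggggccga
Pes1 (chr11:3963965-3963994, plus strand): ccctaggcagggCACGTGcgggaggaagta
Wdr43 (chr17:71616220-71616249, plus strand): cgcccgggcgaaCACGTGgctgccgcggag
Utp20 (chr10:88826765-88826789, minus strand): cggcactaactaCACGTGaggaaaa
Mybbp1a (chr11:72441355-72441376, plus strand): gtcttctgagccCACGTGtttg
A match is a description of these letters and not a measured binding site. The windows of the set had a median GC content of 58.8%, against 61.7% for windows of all tested genes and 52.7% for all windows.

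The values are called scaled reads. They are the deposited log2 values returned to the linear scale, where the library totals lie between 10.3 and 10.9 (in 10⁶). The step between low values implied depths of 6.76 to 16.8 (10⁶ reads), with the fewest in YT-ECKO 1, and a single read was worth 0.614 to 1.53 scaled reads. Of all 8706 genes tested, 5.1% to 12% were listed at 0 in a WT library and 11.6% to 22.3% in a YT-ECKO library, the highest share being in YT-ECKO 1. Transcripts of the targeted genes stood at 1409 to 2833 scaled reads in WT and 9.29 to 605 in YT-ECKO for Yap1, and at 5650 to 8220 in WT and 348 to 2608 in YT-ECKO for Wwtr1, the gene of Taz. The 10 endothelial markers summed to 86390 to 102264 in WT and 82124 to 110558 in YT-ECKO. The 11 microglia and macrophage markers summed to at most 161 and 315, with Ptprc, C1qa, Itgam, Tyrobp and P2ry12 at 0 in all 8 libraries. Sums ran from 413 to 1700 in WT and 156 to 1130 in YT-ECKO for 10 mural markers, from 110 to 474 and 0 to 215 for 6 perivascular fibroblast markers (Lum and Slc6a13 at 0 throughout), and from 766 to 1240 and 497 to 1075 for 7 astrocyte markers (Aldh1l1 at 0 throughout). They ran from 0 to 255 and 0 to 1182 for 7 oligodendrocyte markers (Olig1, Mog, Mag and Sox10 at 0 throughout), from 6 to 347 and 18 to 1896 for 8 neuronal markers (Syt1, Gad1 and Slc17a7 at 0 throughout), and from 17753 to 49654 and 17869 to 60042 for 9 erythroid markers. All these ranges overlap between the groups, and their part in the values below was not tested. In bulk RNA, fewer cells of a type and less RNA per cell cannot be told apart.

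None of the set passed the test between YT-ECKO and WT. Testing required 10 scaled reads or more in 4 or more libraries, which kept 31 of the 39. The test was limma on log2(scaled reads + 128) with Benjamini-Hochberg adjustment over all 8706 genes tested. Of the 31, 0 were called lower and 0 higher at an adjusted p under 0.05, against a background of 0.0345% called lower (3 genes) and 0% called higher. The 3 genes were Bgn, Camk2d and Wwtr1. Yap1, although targeted, was not called, with a log2 difference of -2.39 (limma adjusted p = 0.175). A gene without a call may therefore still differ. The lowest adjusted p in the set was 0.872. At an unadjusted p under 0.05 there were 0 lower and 1 higher (Bop1), against 3.69% lower and 1.78% higher of all genes tested. The groups did not overlap for 1 of the 31, Polr1c, which was lower in YT-ECKO. Over all tested genes the groups did not overlap in 2.07% for lower and 1.33% for higher values. These shares are too close to the background to set the genes apart.

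**Figure D1:**
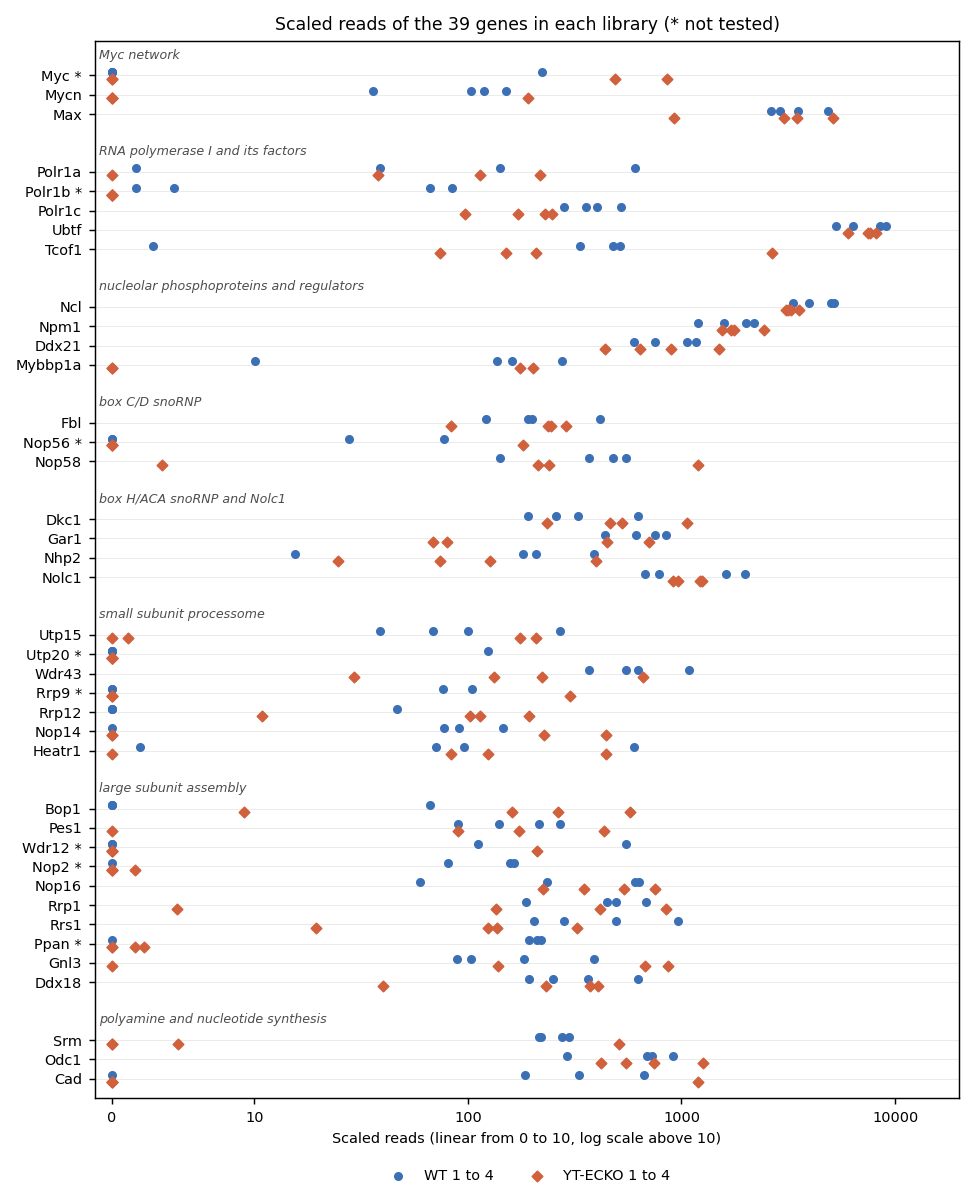
Scaled reads of each of the 39 genes (rows, grouped by role) in WT 1 to 4 (blue circles) and YT-ECKO 1 to 4 (orange diamonds). The axis is linear from 0 to 10 and logarithmic above, and an asterisk marks the 8 genes that were not tested. The groups overlap for nearly every gene, and many genes are spread from 0 to well over 100 scaled reads within 1 group.

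Myc (chromosome 15, 61985391 to 61990374, plus strand, GRCm38), the transcription factor itself, was listed at 0 in most libraries. It stood at 222 scaled reads in WT 3 and at 0 in WT 1, 2 and 4. YT-ECKO 2 and 3 held 854 and 488 scaled reads of it, and YT-ECKO 1 and 4 held 0. It was thus above 0 in 1 of 4 WT and 2 of 4 YT-ECKO libraries, with its highest value in a YT-ECKO library, and it had too few values to be tested. Mycn (chromosome 12, 12936093 to 12941914, minus strand), which encodes N-Myc, showed the opposite arrangement. Its values were 119, 35.9, 103 and 151 scaled reads in WT 1 to 4 and 0, 0, 192 and 0 in YT-ECKO 1 to 4. It was above 0 in every WT library and in 1 YT-ECKO library, which held the highest value of the 8. Its log2 difference was -0.49 ± 0.42 (SE; limma adjusted p = 0.990), and the groups overlapped only through YT-ECKO 3. The difference was -4.62 with a pseudocount of 1 and -0.82 without YT-ECKO 3. Mycn met the filter through WT 1 to 4, where it is high, and only YT-ECKO 3 among the YT-ECKO libraries reached 10 scaled reads. In YT-ECKO 1 and 4 both Myc and Mycn were listed at 0, which was the case in no WT library. These libraries also had the highest shares of all tested genes at 0, 22.3% in YT-ECKO 1 and 14.4% in YT-ECKO 4. In WT libraries that share was 5.1% to 12%.

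Max (chromosome 12, 76937269 to 76962201, minus strand), the partner that Myc proteins need to bind DNA, was detected in all 8 libraries. It stood at 3505, 2898, 2625 and 4878 scaled reads in WT 1 to 4 and at 924, 5099, 3485 and 3009 in YT-ECKO 1 to 4. Apart from YT-ECKO 1 the groups covered the same range. The log2 difference was -0.32 (95% interval -1.17 to 0.52; limma adjusted p = 0.990), and it turned to 0.15 without YT-ECKO 1.

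Among the genes of RNA polymerase I and its factors, the subunit gene Polr1c (chromosome 17, 46243920 to 46248054, minus strand) was the only tested gene of the set whose groups were apart. It encodes a subunit shared by RNA polymerases I and III. Its values were 404, 358, 282 and 523 scaled reads in WT 1 to 4 and 171, 97.5, 229 and 248 in YT-ECKO 1 to 4. The lowest WT library lay above the highest YT-ECKO library by 282 against 248. Means were 186 ± 67.9 in YT-ECKO and 392 ± 101 in WT (SD, n = 4 each; two-sided exact permutation p = 0.0286, the smallest that 4 against 4 allows). Every gene whose groups do not overlap receives this p, so it adds no support beyond the separation itself. By limma the log2 difference was -0.73 with an SE of 0.55 (adjusted p = 0.981), so the gap did not stand out among all genes. With a pseudocount of 1 it was -1.12.

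The other polymerase I genes gave mixed values. Ubtf (chromosome 11, 102304560 to 102319742, minus strand), the factor that binds rRNA gene promoters, stood at 9077, 5312, 6370 and 8504 scaled reads in WT 1 to 4 and at 7612, 8141, 7502 and 6009 in YT-ECKO 1 to 4. Its means were 7316 ± 915 in YT-ECKO and 7316 ± 1773 in WT (SD, n = 4 each), and the log2 difference had a 95% interval of -0.54 to 0.58, the narrowest of the set. Polr1a, the gene of the largest subunit, stood at 141, 38.8, 1.72 and 605 in WT 1 to 4 and at 217, 38.1, 0 and 114 in YT-ECKO 1 to 4. These ranges overlapped widely.

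Polr1b (chromosome 2, 129100995 to 129126594, plus strand), the gene of the second largest subunit, was listed at 0 in all 4 YT-ECKO libraries. The WT libraries held 83.9, 4.36, 1.72 and 66.6 scaled reads in order of number, of which the lower pair corresponds to a few reads each. It was not tested because only 2 libraries reached 10 scaled reads. Tcof1, which encodes the nucleolar protein treacle, stood at 479, 2.91, 514 and 334 in WT 1 to 4 and at 2663, 74.4, 150 and 209 in YT-ECKO 1 to 4. Its highest value and 2 of its lowest 3 values were in YT-ECKO libraries.

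The rRNA precursor made by this polymerase is listed as Rn45s. It took 8.39% to 13.5% of the WT totals and 8.97% to 14.8% of the YT-ECKO totals. The log2 difference was 0.03 ± 0.21 (SE; limma adjusted p = 0.997). How much of this RNA enters a library depends on how the RNA was selected, so the share is not a rate of rRNA synthesis. Mature rRNAs are cut from this precursor, so reads listed as Rn45s may come from either. The level of the precursor alone was not measured.

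Of the nucleolar phosphoproteins and regulators, nucleolin came nearest to a separation. Ncl (chromosome 1, 86344719 to 86359400, minus strand), which encodes this abundant rRNA-binding protein, stood at 3959, 3345, 5203 and 5004 scaled reads in WT 1 to 4. In YT-ECKO 1 to 4 these were 3091, 3154, 3541 and 3243. The groups overlapped through YT-ECKO 3 and WT 2, and the 4 YT-ECKO values lay close together. Means were 3257 ± 199 in YT-ECKO and 4378 ± 878 in WT (SD, n = 4 each; two-sided exact permutation p = 0.0571). The log2 difference was -0.39 (95% interval -1.02 to 0.24; limma adjusted p = 0.983).

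Npm1 (chromosome 11, 33152287 to 33163206, minus strand), which encodes the nucleolar chaperone nucleophosmin, stood at 2177, 1201, 1585 and 1995 in WT 1 to 4 and at 2432, 1701, 1548 and 1768 in YT-ECKO 1 to 4. Its log2 difference of 0.10 had a 95% interval from -0.66 to 0.87. Processed copies of Npm1 in the mouse genome could share its reads, so this value is less certain. Ddx21, a nucleolar RNA helicase gene, stood at 751, 1065, 1167 and 603 in WT 1 to 4 and at 890, 439, 642 and 1502 in YT-ECKO 1 to 4. Mybbp1a, the gene of a nucleolar regulator that binds Myb, stood at 161, 10.1, 275 and 137 in WT 1 to 4 and at 202, 176, 0 and 0 in YT-ECKO 1 to 4. None of these 3 showed a group apart from the other.

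Genes of the box C/D snoRNP, the particle that methylates rRNA, had low and scattered values. Fbl, which encodes the methyltransferase fibrillarin, stood at 122, 199, 190 and 417 scaled reads in WT 1 to 4 and at 237, 83.3, 287 and 245 in YT-ECKO 1 to 4. For Nop58, a scaffold gene of the particle, the values were 367, 476, 141 and 550 in WT 1 to 4 and 1194, 3.54, 212 and 239 in YT-ECKO 1 to 4. Both the highest and the lowest value of Nop58 were thus in YT-ECKO libraries. Nop56, the gene of the paired scaffold protein, was above 0 in WT 2 and WT 4 (77.3 and 27.8) and YT-ECKO 4 (180) and was not tested.

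The box H/ACA snoRNP converts uridine to pseudouridine, and its gene Gar1 differed by -1.05 ± 0.57 on the log2 scale (SE; limma adjusted p = 0.928). Gar1 (chromosome 3, 129824912 to 129831396, minus strand) stood at 842, 752, 616 and 436 scaled reads in WT 1 to 4 and at 705, 446, 79.8 and 69.0 in YT-ECKO 1 to 4. YT-ECKO 3 and 4 lay below every WT library, while YT-ECKO 1 and 2 lay within the WT range. Dkc1, the pseudouridine synthase gene, stood at 623, 258, 326 and 192 in WT 1 to 4 and at 236, 526, 464 and 1062 in YT-ECKO 1 to 4. Nhp2, which encodes another core protein, stood at 210, 182, 15.6 and 389 in WT 1 to 4 and at 24.7, 399, 74.4 and 126 in YT-ECKO 1 to 4. Within this particle the members therefore did not share a direction, with 3 of 4 lower, Nolc1 included, and Dkc1 higher in YT-ECKO on the mean log2 scale.

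Nolc1, which encodes a chaperone of both kinds of snoRNP, stood at 1975, 1622, 672 and 788 in WT 1 to 4 and at 961, 1249, 1222 and 910 in YT-ECKO 1 to 4. All 4 YT-ECKO values lay between the lower and the higher pair of WT values. The 95% interval of its log2 difference ran from -0.99 to 0.81.

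The small subunit processome cuts the rRNA precursor on the way to the small subunit, and 5 of its 7 genes were tested. Wdr43 (chromosome 17, 71615895 to 71659031, plus strand), a processome gene with an E-box shown above, stood at 627, 547, 368 and 1090 scaled reads in WT 1 to 4 and at 29.3, 663, 133 and 222 in YT-ECKO 1 to 4. All YT-ECKO libraries but YT-ECKO 2 lay below every WT library. The log2 difference was -1.19 ± 0.59 (SE; limma adjusted p = 0.928), the most negative of the set. For Rrp12 (chromosome 19, 41862851 to 41896173, minus strand), which encodes a factor in export and maturation of the subunits, the arrangement was reversed. It was at 0 in WT 1, 2 and 4 and at 46.8 in WT 3, and it stood at 10.8, 192, 102 and 114 in YT-ECKO 1 to 4. The log2 difference was 0.69 ± 0.36 (SE; limma adjusted p = 0.928), and it was 4.78 with a pseudocount of 1. Rrp12 reached the level for testing only through its YT-ECKO values.

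The other processome genes overlapped. Utp15 stood at 101, 68.8, 270 and 38.8 in WT 1 to 4 and at 0, 176, 208 and 1.17 in YT-ECKO 1 to 4. Nop14 stood at 90.9, 77.4, 146 and 0 in WT 1 to 4 and at 443, 0, 0 and 226 in YT-ECKO 1 to 4. For Heatr1, which also acts in polymerase I transcription, the values were 71.2, 96.1, 598 and 1.99 in WT 1 to 4 and 83.2, 0, 445 and 124 in YT-ECKO 1 to 4. Each of these 3 genes was at 0 in at least 1 library of YT-ECKO. Rrp9 was above 0 in WT 1 and WT 4 (76.8 and 104) and YT-ECKO 4 (300), and Utp20 in WT 1 alone (125), and neither was tested.

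Large subunit assembly held the gene with the lowest p of the set, Bop1, and also Rrs1 with a difference of similar size in the other direction. Bop1 (chromosome 15, 76452989 to 76477277, minus strand) encodes a protein that forms the PeBoW complex with the products of Pes1 and Wdr12. It was at 0 in WT 1, 2 and 4 and at 66.7 in WT 3, and YT-ECKO 1 to 4 held 9.3, 160, 574 and 264 scaled reads of it. The groups overlapped through YT-ECKO 1, and the log2 difference was 1.19 ± 0.51 (SE; limma adjusted p = 0.872, unadjusted p = 0.0277). With a pseudocount of 1 it was 5.46. Bop1 passed the filter through 3 YT-ECKO libraries and WT 3, and without WT 3 it was not tested. The sources used here do not record the strand, and 13 of the 39 members overlap a gene on the opposite strand, whose reads might then not be told apart. For Bop1 one such gene, Mroh1, stood at 0, 83.1, 44.2 and 0 in WT 1 to 4 and at 0, 0, 135 and 138 in YT-ECKO 1 to 4. Far higher values stood opposite Mybbp1a (Spns2, 1122 to 2939 scaled reads over the 8 libraries), Gnl3 (Pbrm1, 266 to 2206) and Heatr1 (Lgals8, 971 to 2013), so the values of these 3 members are less certain. The same doubt applies to Nop56 (opposite Idh3b, 168.9 to 640.5), Nhp2 (Rmnd5b, 32.2 to 400) and Dkc1 (Mpp1, 0 to 311.5).

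Neither PeBoW partner gene gave a call, as was the case for Bop1 itself. Pes1 stood at 216, 140, 90.1 and 270 in WT 1 to 4 and at 0, 174, 89.8 and 433 in YT-ECKO 1 to 4, with wide overlap. Wdr12 was above 0 in WT 2 and WT 4 (112 and 552) and in YT-ECKO 2 (211) and was not tested. Rrs1 (chromosome 1, 9545408 to 9547455, plus strand), which helps to bring the 5S particle into the large subunit, stood at 494, 282, 968 and 204 in WT 1 to 4 and at 125, 19.5, 323 and 137 in YT-ECKO 1 to 4. YT-ECKO 3 alone reached into the WT range, and the log2 difference was -1.10 ± 0.60 (SE; limma adjusted p = 0.928).

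Ppan and Nop2, both of large subunit assembly, had a WT-sided arrangement without reaching the level for testing. Ppan (chromosome 9, 20888175 to 20892178, plus strand) stood at 0, 221, 211 and 193 scaled reads in WT 1 to 4 and at 1.59, 0, 2.28 and 0 in YT-ECKO 1 to 4. Nop2 (chromosome 6, 125131909 to 125144753, plus strand), an rRNA methyltransferase gene whose E-box is shown above, stood at 158, 164, 80.6 and 0 in WT 1 to 4 and at 1.6, 0, 0 and 0 in YT-ECKO 1 to 4. Each was near or at 0 in every YT-ECKO library and well above it in 3 of 4 WT libraries. When limma was run with no filter on low values, on 12938 genes, the log2 difference was -1.03 for Ppan (unadjusted p = 0.0201, adjusted p = 0.854) and -0.76 for Nop2 (unadjusted p = 0.0327, adjusted p = 0.854). Of the other members left out by the filter, Polr1b (-0.35), Utp20 (-0.25) and Wdr12 (-0.48) were lower, and Myc (0.94), Nop56 (0.08) and Rrp9 (0.05) higher. Over all 39 in that fit 26 were lower, with a median of -0.23, against 21 of 31 and -0.21 in the filtered fit.

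Of the other large subunit genes, Rrp1 stood at 187, 447, 495 and 682 in WT 1 to 4 and at 136, 418, 845 and 4.61 in YT-ECKO 1 to 4. Gnl3, which encodes nucleostemin, stood at 183, 88.9, 390 and 104 in WT 1 to 4 and at 865, 0, 678 and 138 in YT-ECKO 1 to 4. For Gnl3 the higher pair and the lowest value were all in YT-ECKO. The helicase gene Ddx18 stood at 364, 626, 193 and 252 in WT 1 to 4 and at 232, 409, 374 and 40.2 in YT-ECKO 1 to 4. Nop16 ranged from 59.7 to 636 in WT and from 225 to 752 in YT-ECKO.

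Among the polyamine and nucleotide genes, Srm (chromosome 4, 148591503 to 148594993, plus strand), which encodes spermidine synthase, was even in WT and uneven in YT-ECKO. Its values were 297, 219, 215 and 275 scaled reads in WT 1 to 4 and 0, 508, 0 and 4.61 in YT-ECKO 1 to 4. YT-ECKO 2 held the highest value of all and the other 3 YT-ECKO libraries the lowest. The log2 difference was -0.97 ± 0.59 (SE; limma adjusted p = 0.974), and it was -1.54 without YT-ECKO 2 and -5.10 with a pseudocount of 1. Srm met the filter through WT 1 to 4, and only YT-ECKO 2 among the YT-ECKO libraries reached 10 scaled reads. Cad, whose product starts pyrimidine synthesis, had the same YT-ECKO 2 peak. It stood at 330, 185, 665 and 0 in WT 1 to 4 and at 0, 1192, 0 and 0 in YT-ECKO 1 to 4. Odc1 (chromosome 12, 17544794 to 17551505, plus strand), the gene of ornithine decarboxylase and a textbook Myc target, stood at 912, 291, 726 and 692 in WT 1 to 4. In YT-ECKO 1 to 4 it stood at 550, 748, 1261 and 419. Its log2 difference of 0.14 had a 95% interval from -0.89 to 1.17.

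**Figure D2:**
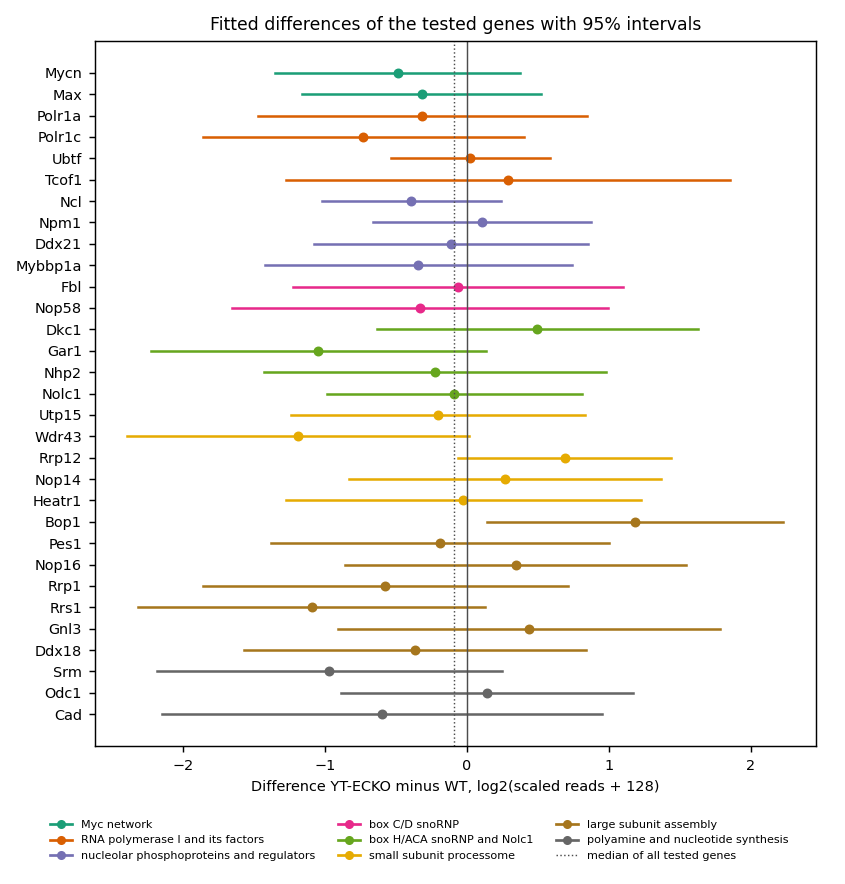
Fitted difference (YT-ECKO minus WT, log2(scaled reads + 128)) of the 31 tested genes, coloured by role, with bars for the 95% interval. The dotted line is the median of all tested genes, -0.09. The interval of Bop1 alone lies to 1 side of 0.

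As a group, the tested genes were spread around the level of all genes. Of the 31, 21 had a lower and 10 a higher value in YT-ECKO, that is 67.7% lower against 56.9% of all genes tested. Their median log2 difference was -0.21 against -0.09 for all, and the single differences ran from -1.19 (Wdr43) to 1.19 (Bop1). With a pseudocount of 1 the medians were -0.73 for the set and -0.28 for all genes. That pseudocount also gave -1.96 for Wdr43, -1.98 for Rrs1 and -1.65 for Gar1. With upper quartile scaling, which moved the median of all genes to -0.22, that of the set was -0.30 and 24 of the 31 were lower.

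The count of genes whose groups did not overlap depended on single libraries, and smaller groups are apart more often among all genes too. It was 1 of 31 with all 8 libraries, against 3.4% of all tested genes in either direction. Without YT-ECKO 3 it was 4 of 30 (Polr1c, Ncl, Mycn and Rrs1, all lower), against 7.38%. Without YT-ECKO 2 it was 3 of 29 (Polr1c, Wdr43 and Srm, all lower), against 7.16%. Without YT-ECKO 1 it was 3 of 31 (Polr1c lower, Rrp12 and Bop1 higher), against 6.81%. It was 2 of 30 without WT 2 (Polr1c and Ncl, lower), against 5.36%, and 2 of 29 without WT 3 (Polr1c lower, Rrp12 higher), against 5.7%. Polr1c is in each of these counts by construction, since groups that are apart stay apart when a library is left out. Mycn without YT-ECKO 3 and Srm without YT-ECKO 2 met the filter only through WT, where they are high. Rrp12 without WT 3 met it only through YT-ECKO, where it is high. The place of these genes in the counts is no support for a difference.

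Over all 39, members listed at 0 were more numerous in each YT-ECKO library than in any WT library. They numbered 6, 5, 4 and 7 of 39 in WT 1 to 4 and 11, 10, 11 and 9 in YT-ECKO 1 to 4. Among the 31 tested members alone the groups overlapped, with 2, 2, 0 and 4 at 0 in WT 1 to 4 and 5, 4, 5 and 3 in YT-ECKO 1 to 4. Over all tested genes they overlapped too, with 5.1% to 12% at 0 in WT and 11.6% to 22.3% in YT-ECKO. Of the 39, 17 (43.6%) were above 0 in more WT than YT-ECKO libraries and 3 in fewer, the 3 being Myc, Rrp12 and Bop1. Among all 12938 genes above 0 in any library, 35.5% were above 0 in more WT libraries and 15.5% in fewer. The surplus of zeros in YT-ECKO was thus also present among all genes, and its relation to depth was not tested. Since the value of a single read differs between libraries, the level below which a gene is listed at 0 differs too.

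Summed over the 39 genes, the groups overlapped. The sums were 29463, 22011, 26473 and 30118 scaled reads in WT 1 to 4 and 24580, 27575, 25504 and 22113 in YT-ECKO 1 to 4. Without Ubtf, Ncl and Max, the sums were 10455 to 12922 in WT and 9852 to 12953 in YT-ECKO. By role, the box C/D genes had the widest relative range within a group, from 87 in YT-ECKO 2 to 1431 in YT-ECKO 1.

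**Figure D3:**
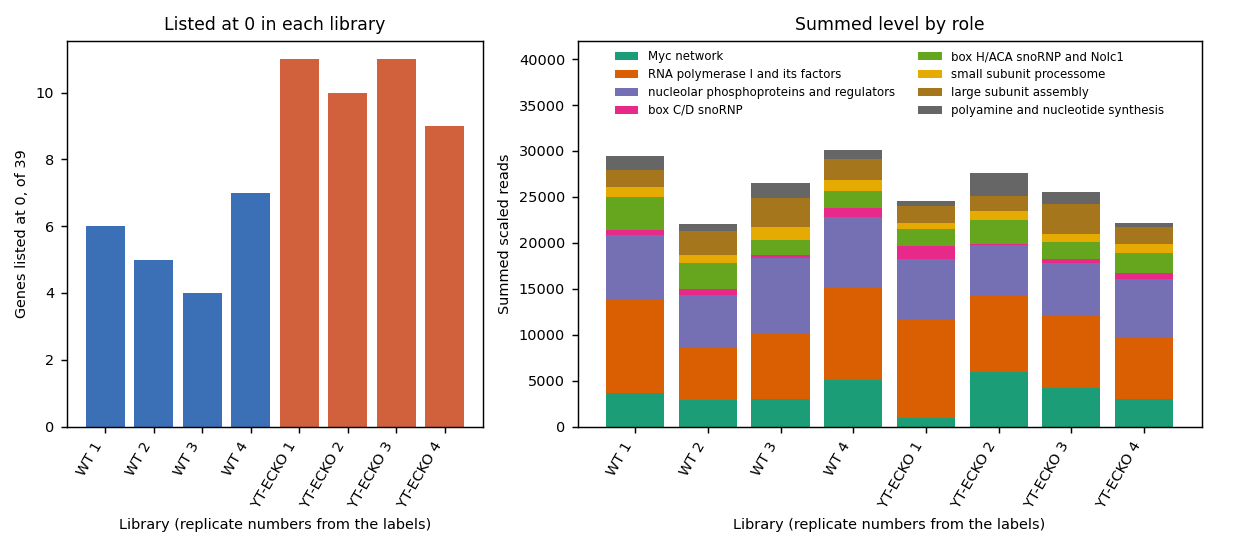
Left, the number of the 39 genes listed at 0 in each library. Right, scaled reads summed over the genes of each role (stacked bars), by library. All 4 YT-ECKO libraries list more of the 39 genes at 0 than any WT library. The groups overlap for the tested genes of the set and for all tested genes (5.1% to 12% at 0 in WT, 11.6% to 22.3% in YT-ECKO). The summed levels also overlap, from 22011 to 30118 in WT and from 22113 to 27575 in YT-ECKO.

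The precision of these comparisons followed the level of each gene. The distance from a difference to either end of its 95% interval had a median of 1.16 log2 units in the set, against 1.10 over all genes tested. The whole interval lay within 1 log2 unit of 0 for 3 of the 31, namely Ubtf, Npm1 and Nolc1. It lay above -1 for 10 and below 1 for 21 of them, so a difference of -1 on this scale was not excluded by the interval for the other 21. Because of the pseudocount, a difference of -1 on this scale is more than a 2-fold difference in scaled reads, above all for genes with low values. Intervals of the least abundant genes, such as Rrp12, look narrow because the pseudocount of 128 compresses low values.

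**Figure D4:**
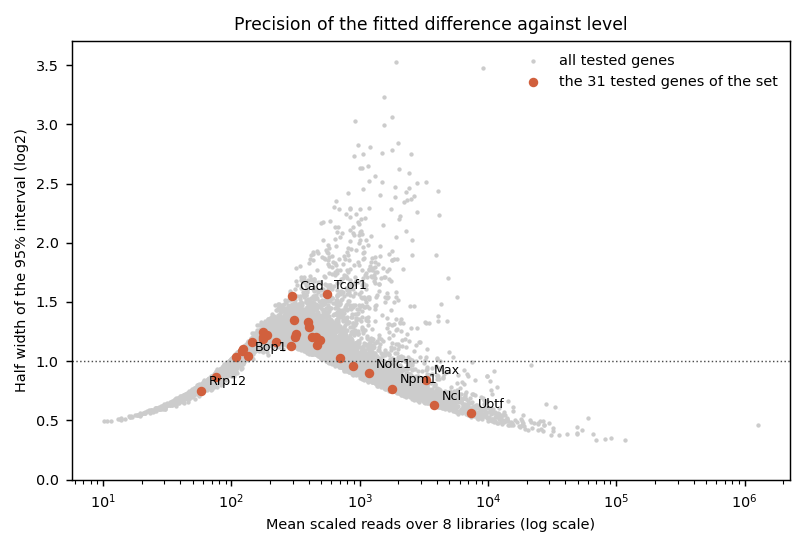
Distance from the fitted log2 difference to either end of its 95% interval against the mean level over the 8 libraries (log axis), for all tested genes (grey) and the 31 tested genes of the set (orange). The dotted line marks 1 log2 unit. Ubtf and Ncl have the narrowest intervals among well detected genes of the set, and most of its genes lie above the line.

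Other genes of the same pathways, from lists that share no gene with the 39, also gave no call. The lists of RNA polymerase I, snoRNP, small subunit and large subunit genes together held 137 genes, of which 119 were tested. Of these, 67 were lower and 52 higher in YT-ECKO, with a median of -0.16, and 0 passed an adjusted p of 0.05 in limma. At an unadjusted p under 0.05 there were 0 lower and 1 higher, against 3.69% lower and 1.78% higher of all genes tested. That gene was Taf1d, a polymerase I promoter factor, at 864, 1479, 457 and 350 scaled reads in WT 1 to 4 and 3121, 928, 1439 and 1637 in YT-ECKO 1 to 4. Its log2 difference was 1.10 ± 0.48 (SE; limma adjusted p = 0.872). By list, 6 of 16 polymerase I genes, 7 of 12 snoRNP genes, 22 of 41 small subunit genes and 32 of 50 large subunit genes were lower, with medians of 0.19, -0.18, -0.04 and -0.22.

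The genes with the smallest p of these lists were as scattered as the members. Taf1b, another promoter factor gene, stood at 435, 172, 170 and 611 in WT 1 to 4 and at 0, 0, 90.6 and 407 in YT-ECKO 1 to 4. Naf1 and Wrap53 act in making and placing H/ACA particles. Their log2 differences were -0.99 ± 0.52 for Naf1 and 0.81 ± 0.54 for Wrap53 (SE; limma adjusted p = 0.928 and 0.980). For the small subunit these genes were Utp18 (0.60 ± 0.32) and Nat10 (0.93 ± 0.50). For the large subunit they were the exosome gene Exosc9 (-1.21 ± 0.59) and Las1l (-1.01 ± 0.53; SE in each case, limma adjusted p = 0.928 for all 4). Naf1 stood at 27.6, 692, 146 and 105 in WT 1 to 4 and at 3.14, 118, 0 and 0 in YT-ECKO 1 to 4. Exosc9 stood at 573, 71.7, 318 and 324 in WT 1 to 4 and at 0, 318, 6.88 and 0 in YT-ECKO 1 to 4. Naf1 and Exosc9 met the filter through WT 1 to 4, where they are high, so their p is no support for a difference. Las1l met it mainly through WT, and Utp18 and Nat10 mainly through YT-ECKO.

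The rest of the Myc network and the genes reported to be induced by Myc had medians near that of all genes, while the few reported to be repressed had a higher one. Of 15 tested network genes 11 were lower, with a median of -0.17. Mxd4, which encodes a Max partner that opposes Myc, stood at 57.7, 116, 0 and 152 scaled reads in WT 1 to 4 and at 220, 756, 122 and 417 in YT-ECKO 1 to 4. The groups overlapped through YT-ECKO 3 and WT 4, and the log2 difference was 1.17 ± 0.58 (SE; limma adjusted p = 0.928). Bin1, a Myc-interacting gene, had a difference of -1.45 ± 0.77 (SE; limma adjusted p = 0.928). Of 36 tested genes reported to be induced by Myc, 22 were lower and 14 higher, with a median of -0.17. Tfrc, the transferrin receptor gene, averaged 11260 ± 2387 scaled reads in WT and 8471 ± 1610 in YT-ECKO. The lactate transporter gene Slc16a1 averaged 16170 ± 1670 in WT and 12850 ± 1893 in YT-ECKO (SD, n = 4 each). Their limma adjusted p was 0.980 each.

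Of 6 tested genes reported to be repressed by Myc, 5 were higher and 1 lower, with a median of 0.43. Cdkn1a, which encodes the cell cycle inhibitor p21, stood at 950, 1463, 1456 and 1645 in WT 1 to 4 and at 591, 4801, 3772 and 3428 in YT-ECKO 1 to 4. YT-ECKO 1 lay below every WT library and the other YT-ECKO libraries above, and the log2 difference was 0.84 ± 0.49 (SE; limma adjusted p = 0.960). Cdkn1b, the gene of p27, had a difference of 0.73 ± 0.55 (SE; limma adjusted p = 0.981).

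In the list of other polyamine and nucleotide genes 19 of 27 were lower, with a median of -0.18, and 0 were called. Oaz2, an antizyme gene whose product restrains ornithine decarboxylase, stood at 4554, 5951, 4495 and 5282 scaled reads in WT 1 to 4 and at 1043, 3003, 2849 and 3497 in YT-ECKO 1 to 4. All YT-ECKO values lay below all WT values, and the log2 difference was -1.04 ± 0.36 (SE; limma adjusted p = 0.675). In this list of 27 the groups did not overlap for 2 lower and 0 higher genes. Over all genes tested these shares were 2.07% and 1.33%. Ctps2, a cytidine triphosphate synthase gene, was uneven in WT, at 0, 7.21, 0 and 1890 in WT 1 to 4, and stood at 1301, 177, 1040 and 942 in YT-ECKO 1 to 4.

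Host genes of snoRNAs link transcription by RNA polymerase II to rRNA modification. Annotated snoRNA genes lay inside 8 of the 39 members (20.5%), on the same strand, against 2.03% of the tested coding genes. The 8 were Ncl, Nop56, Nop58, Dkc1, Wdr43, Ppan, Gnl3 and Odc1, with 22 snoRNA genes in all. Of the 6 tested among them 3 were lower, with a median difference of -0.10, against 18 of 25 and a median of -0.21 for the tested members without one. Of 9 tested noncoding hosts and RNA-processing RNAs, 7 were lower, with a median of -0.29. Snhg7 was listed at 0 in all 4 YT-ECKO libraries and stood at 19.0, 280, 136 and 224 scaled reads in WT 1 to 4 (unadjusted p = 0.0116, limma adjusted p = 0.746). It passed the filter only through WT, the group where it is high, so this p is no support for a difference. Snhg17 stood at 0, 0, 29.4 and 0 in WT 1 to 4 and at 661, 310, 0 and 23.0 in YT-ECKO 1 to 4, in the other direction.

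**Figure D5:**
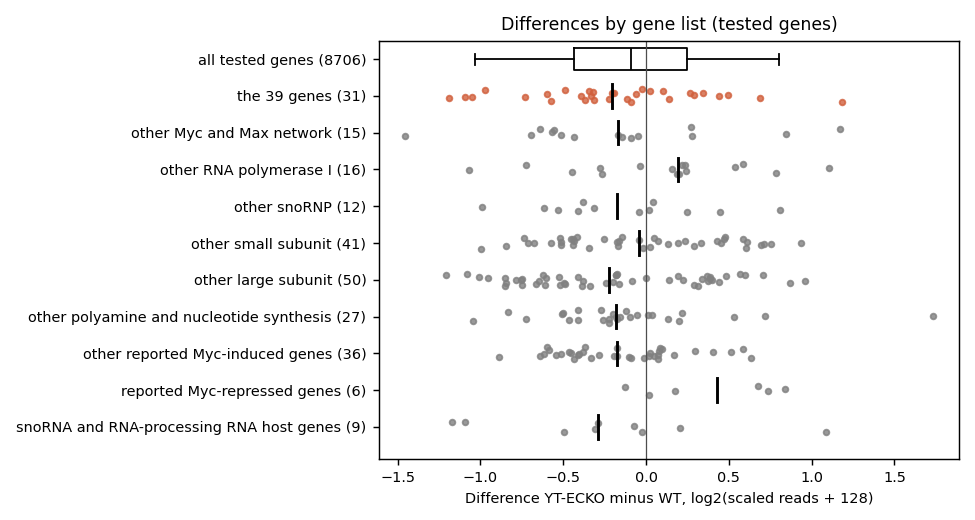
Log2 differences (YT-ECKO minus WT) of the tested genes in each list, with the number tested in parentheses and a black bar at each median. The box gives the quartiles and the 5th to 95th percentiles of all 8706 tested genes. Every list spans 0, and most medians lie within the box, the exception being the 6 Myc-repressed genes at 0.43.

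Of the 6 members with an E-box, 4 were tested (Max, Pes1, Wdr43 and Mybbp1a) and all 4 were on the lower side in YT-ECKO, at a median of -0.33. Of the 20 tested members whose windows lacked the motif 14 were lower, with a median of -0.22. Of all genes tested, 56.9% were lower. The intervals of the differences of Max, Pes1, Wdr43 and Mybbp1a all included 0. The other 2 members with an E-box, Nop2 and Utp20, were also on the lower side with no filter, at -0.76 and -0.25. Utp20 was above 0 in WT 1 alone (125 scaled reads). No test was made between members with and without the motif, and without YT-ECKO 1 the difference of Max changed sign, as given above.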

How the data were processed

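RNA was extracted with Trizol and 500 ng of total RNA went into a Lexogen Quant-Seq library, per the labels' protocols; which part of a transcript is read is not settled by them. Bowtie2, edgeR and the mm10 build are named per the submitters' processing notes; the sources used here do not give versions, counter, annotation or strand. Log2 values are what the authors deposited, and they were returned to the linear scale with 0 kept at 0. In each library 89.8% to 100% of the values below 12 were whole multiples of its step (tolerance 0.1 of a step), so they were read as scaled reads. The 27 symbols not shared by all tables were left out.

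Genes reaching 10 scaled reads in 4 or more libraries were tested with limma 3.58.1 in R 4.3.3 on log2(scaled reads + 128), with trended, robust moderation and no covariate. The pseudocount shrinks the fold changes of weakly expressed genes. P-values were adjusted by Benjamini-Hochberg over all genes, at 0.05. The functions were tested on simulated data. No 2 libraries shared more than 0.08% of values. Log2 values correlated at 0.684 to 0.839 within groups and at 0.700 to 0.809 between groups, so libraries of a group were not clearly more alike. YT-ECKO 1 correlated at 0.684 to 0.694 with the other YT-ECKO libraries and at 0.700 to 0.723 with the WT libraries. Positions are from GENCODE M21 (GRCm38), which held all 39 members. An exact permutation test, two-sided, was also run for single genes.

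The members and lists were chosen with earlier results of these data known. Values are printed for Myc, Mycn and Max, and in each other role for up to 5 tested members, first those called, then those not overlapping, then those with the smallest p; each pathway list adds 2 genes. Members outside this rule (such as Polr1b, Ppan, Nop2, Nop56, Rrp9, Utp20, Pes1, Wdr12 and Nop16) are named to account for all 39.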

Additional observations from a re-analysis of the deposited data

Results flagged for a closer look

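Each member was examined in each group of 4 libraries for a library standing apart from the other 3 on the log2(scaled reads + 128) scale, 78 groups in all. Chance picks out about 1 group in 20 of continuous values, but a group with 3 libraries at 0 and 1 above is always picked out, so the number found, 12, cannot be read against that rate. In 11 a single library was high. In WT 3 this held for Myc (222 scaled reads), Rrp12 (46.8) and Bop1 (66.7), in WT 1 for Utp20 (125), and in YT-ECKO 1 for Nop2 (1.6), each at 0 in the other 3 libraries of its group. In YT-ECKO 2 it held for Srm (508, the others at most 4.61), Cad (1192) and Wdr12 (211), in YT-ECKO 3 for Mycn (192), and in YT-ECKO 4 for Nop56 (180) and Rrp9 (299.8), with the others at 0 for these 5. A single low library was Ppan in WT 1 (0, the others 193 to 221). Of the 12 members, 7 were not tested.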

How the results depend on the processing

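Deviations of same-numbered libraries correlated at -0.03, -0.04, 0.07 and 0.08 for numbers 1 to 4. For libraries with different numbers these correlations ran from -0.08 to 0.07. The values gave no ground for a paired main fit, but they cannot exclude a pairing behind the numbers. With the replicate block 5 genes of all tested were called in place of 3, the 3 among them, and 0 members. Members called stayed at 0 under all 21 alternatives. Over all genes, 0 were called with a pseudocount of 1, with the log2 values as deposited and with no filter, and 0 to 6 with 1 library left out (1 without WT 1, 0 without WT 2, 6 without YT-ECKO 3). The median of the tested members was -0.73 with a pseudocount of 1 and -0.65 on the deposited log2 values, and negative under all 21. Non-overlapping members numbered 2 with no filter (5.13%, against 2.43% of all genes), 2 with upper quartile scaling (6.45% against 4.09%) and 1 to 4 with 1 library left out (3.23% to 13.3%, against 5.1% to 7.38%). With upper quartile scaling Npm1, Ubtf and Odc1 changed sign to -0.0921, -0.18 and -0.0303. With 1 library left out the difference ran from -0.0485 to 0.22 for Npm1, from -0.12 to 0.14 for Ubtf, from -0.13 to 0.33 for Odc1, from -0.32 to 0.15 for Nolc1 and from -0.62 to 0.15 for Max. The cause was not tested. Of the other 9 members with a printed alternative, Mycn, Ncl, Polr1c, Gar1, Wdr43, Rrp12, Bop1, Rrs1 and Srm, none changed sign where it was tested, Bop1, Mycn and Rrp12 falling below a filter in some alternatives. A single read was worth 0.614 to 1.53 scaled reads, which limits the precision of low values, and the relation of the zeros to depth was not tested. Values within a group also jumped by far more than this step, as for Cad at 0, 1192, 0 and 0 in YT-ECKO 1 to 4. A listed 0 therefore need not mean absence, and the cause of such jumps was not tested.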
